A study of Mus musculus with 18 samples.

Results

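Ly6a, Prom1, Cd24a, Procr, Cd44, Thy1, Cd200 and Plet1 encode cell surface antigens against which antibodies have been used to divide mammary cells into subsets, but which were not part of the sort in this study. These 8 genes were chosen by name, as antigens outside the gates, and are 8 of the 16471 genes tested. Their RNA was measured in 18 libraries from the mammary glands of 6 nulliparous mice, 12 weeks of age, all carrying an MMTV-Cre transgene and none treated. Each of 6 numbered samples gave 3 sorted populations with 6 libraries each. Hormone-sensing luminal cells (HSL, also known as mature luminal cells) were sorted as CD49f low and CD61 negative, alveolar progenitors (AP, also known as luminal progenitors) as CD49f low and CD61 positive, and basal cells as CD49f high and CD61 positive. The gates also used EpCAM and, to leave out other lineages, CD31, CD45 and Ter119. The MMTV promoter drives Cre in mammary epithelium, among other tissues, and no group without the transgene is in the design. The labels do not say in so many words that 1 sample number is 1 animal.

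The mammary duct has an outer basal layer of contractile cells and an inner luminal layer, in which cells with oestrogen and progesterone receptors lie among progenitors of the milk-secreting alveoli. Antibodies to surface proteins allow these layers to be separated alive, and most of what is known of mammary stem and progenitor cells rests on such sorts. Ly6a is the gene of Sca-1, and Prom1 the gene of prominin-1 (CD133), a membrane protein of microvilli. Both have been used to pick out hormone-sensing luminal cells. Cd24a encodes the heat-stable antigen, a short, heavily glycosylated protein that is higher at the surface of luminal than of basal cells. Procr encodes the protein C receptor, used to isolate a subset of basal cells. Cd44 encodes the main receptor for hyaluronan, Thy1 the antigen CD90, Cd200 a ligand of an inhibitory receptor on myeloid cells, and Plet1 a surface protein first described in placenta and used to mark progenitors in several epithelia. Sca-1, CD24, CD90 and Plet1 are held in the membrane by a glycosylphosphatidylinositol (GPI) anchor.

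In GRCm38, with GENCODE M21 gene models, the genes lie on 6 chromosomes. Cd44 (ENSMUSG00000005087) lies on chromosome 2, 102811141 to 102901665, minus strand, and Procr (ENSMUSG00000027611) on the same chromosome, 155751117 to 155755471, plus strand. Thy1 (ENSMUSG00000032011) lies on chromosome 9, 44043384 to 44048579, plus strand, and Plet1 (ENSMUSG00000032068) on chromosome 9, 50494525 to 50505482, plus strand. Prom1 (ENSMUSG00000029086) lies on chromosome 5, 43993620 to 44102032, minus strand, and Cd24a (ENSMUSG00000047139) on chromosome 10, 43578284 to 43584265, plus strand. Ly6a (ENSMUSG00000075602) lies on chromosome 15, 74994877 to 74998031, minus strand, and Cd200 (ENSMUSG00000022661) on chromosome 16, 45382135 to 45409053, minus strand.

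Some of these genes share sequence or position with others. The whole span of Plet1 lies inside the antisense gene Plet1os, which held 0 to 413 counts per library. Since the library kit does not mark the strand, reads of sequence that both transcripts share cannot be told apart. Prom1 shares 22.4% of its span with the non-coding genes Gm16401 and Gm42716, which held 0 to 14 counts between them. Of the distinct 50-base stretches of Ly6a transcripts, 19% also occur in transcripts of other genes, chiefly its paralogs Ly6c1, Ly6i and Ly6c2. The same share was 9.85% for Plet1, 5.1% for Prom1, 2.75% for Cd24a and 0% for Cd44, Procr, Thy1 and Cd200. How reads of shared sequence or of overlapping genes were counted is not given in the sources used here. The levels of Ly6a and Plet1 carry that uncertainty.

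Promoter windows from RefSeq (GRCm38.p6), from 250 bases before to 50 after a start given by RefSeq, were found for 5 genes. These are Prom1 (with 2 windows, of which the second is shown), Procr, Cd44, Cd200 and Plet1. For Prom1 and Procr the start of the window shown is not the GENCODE gene start above. The 4 windows below are shown because their genes have the different patterns described next: Prom1 and Cd200 were highest in HSL libraries, Plet1 in AP libraries and Procr in basal libraries. They are written 5′ to 3′ on the strand of the gene. Capitals mark every match, on either strand, to the letters of 10 motifs, which are spelled out after the sequences.
Prom1, chr5:44101687-44101986, minus strand: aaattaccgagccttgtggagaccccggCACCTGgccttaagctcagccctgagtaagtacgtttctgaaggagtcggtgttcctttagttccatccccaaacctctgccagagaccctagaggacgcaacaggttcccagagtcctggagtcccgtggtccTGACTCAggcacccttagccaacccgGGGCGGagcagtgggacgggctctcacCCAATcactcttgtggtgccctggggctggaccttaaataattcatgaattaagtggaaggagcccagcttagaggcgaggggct
Cd200, chr16:45409004-45409303, minus strand: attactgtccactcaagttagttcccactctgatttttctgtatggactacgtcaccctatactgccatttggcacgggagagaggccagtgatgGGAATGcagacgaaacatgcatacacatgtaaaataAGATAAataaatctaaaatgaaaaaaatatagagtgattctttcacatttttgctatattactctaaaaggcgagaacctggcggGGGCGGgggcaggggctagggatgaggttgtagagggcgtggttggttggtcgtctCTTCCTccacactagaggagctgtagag
Plet1, chr9:50494275-50494574, plus strand: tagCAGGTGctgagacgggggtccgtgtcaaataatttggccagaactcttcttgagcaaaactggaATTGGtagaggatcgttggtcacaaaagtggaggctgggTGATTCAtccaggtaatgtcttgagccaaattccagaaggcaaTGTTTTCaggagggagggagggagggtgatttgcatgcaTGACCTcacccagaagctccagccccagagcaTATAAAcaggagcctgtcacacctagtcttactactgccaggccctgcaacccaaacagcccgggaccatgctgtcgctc
Procr, chr2:155750967-155751266, plus strand: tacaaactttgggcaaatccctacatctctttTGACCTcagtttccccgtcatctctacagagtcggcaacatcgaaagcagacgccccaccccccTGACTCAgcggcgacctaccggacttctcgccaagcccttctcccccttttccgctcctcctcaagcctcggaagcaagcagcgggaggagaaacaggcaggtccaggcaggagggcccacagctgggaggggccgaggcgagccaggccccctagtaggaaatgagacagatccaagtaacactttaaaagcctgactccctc

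The AP-1 letters, TGANTCA, occurred in the windows of Prom1, Plet1 and Procr, against 7.81% of all 32851 RefSeq promoter windows of this length. Only Plet1 of these 4 held the TATA box letters, TATAAA, 30 bases before the start, against 13.6% of all windows. Plet1 also held the letters of the forkhead motif, TGTTTNC, found in 20.5% of all windows. Cd200 held the GATA motif, AGATAA, found in 11.2%, the TEAD motif, GGAATG, found in 14.7%, and the ETS motif, AGGAAG, found in 35.4% of all windows. Both Prom1 and Cd200 held a GC box, GGGCGG, found in 35.7%. The nuclear receptor letters, AGGTCA, stood in the windows of Plet1 and Procr and in 16.3% of all windows. Both Prom1 and Plet1 held the E-box letters, CACCTG, found in 20.2%, and a CCAAT box, found in 37.4% of all windows. No match overlapped another in the 4 windows. The matches describe the letters in these windows and are not binding sites shown in these cells.

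Total counts in genes per library were 26515200 to 52403133 in HSL, 37390477 to 62503032 in AP and 29898247 to 91092224 in basal libraries. Most marker genes followed the labels: all 12 basal markers were lower and 10 of 10 hormone-sensing markers higher in HSL than in basal libraries. Of the latter, Tnfsf11 was called at an adjusted p of 0.0443 by edgeR. It ranged from 0.132 to 592 CPM over HSL libraries, with a mean of 101 ± 241 CPM. All 11 tested AP markers were lower in HSL than in AP libraries. Among them is Itgb3, the gene of CD61, the antigen that separated these populations in the sort. Against basal libraries, 10 of the AP markers were higher and Itgb3 was lower in AP libraries. Of the hormone-sensing markers 8 were higher in HSL than in AP libraries, 1 was not called, and Sec14l2 was lower, at 17.6 against 45.6 CPM (-1.37 ± 0.21, adjusted p = 5.05e-05). The 3 libraries of sample 1 stood apart from the other 15 on the third principal component (7.82% of the variance), which is why results are also given without them. Levels are in CPM, the counts of a gene scaled to a common library size after adjustment by TMM factors, as mean ± SD over 6 libraries. Fold changes are log2 ± standard error from edgeR, positive where the first-named population was higher, and adjusted p-values are from its quasi-likelihood test with Benjamini-Hochberg adjustment over all 16471 genes. Sorted cells are bulk samples, in which fewer cells carrying a transcript and less transcript per cell cannot be told apart.

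All 8 genes passed the filter on low counts. HSL libraries differed from basal libraries in all 8, with 5 higher and 3 lower, where 58.4% of all genes were called (27.8% higher and 30.6% lower). HSL libraries differed from AP libraries in all 8 as well, 4 higher and 4 lower, where 39.9% of all genes were called (19.8% higher and 20.1% lower). Scaled by total counts in place of TMM factors, that split of all genes was 2234 higher and 4043 lower, against 3256 and 3315, while the calls of the 8 genes were unchanged. AP libraries differed from basal libraries in 5, 4 higher and 1 lower, where 44.7% of all genes were called (21.5% higher and 23.1% lower), and Cd44, Thy1 and Cd200 were not called there. Without sample 1 that last count was 7, with Cd44 and Cd200 added, where 50.8% of all genes were called. The other counts without sample 1 were again 8 for HSL against basal, where 64.7% of all genes were called, and 8 for HSL against AP, where 48.0% were. The libraries of the compared populations did not overlap in 8 genes for HSL against basal (36.9% of all genes), in 4 for HSL against AP (20.6%) and in 3 for AP against basal (25.9%).

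**Figure D1:**
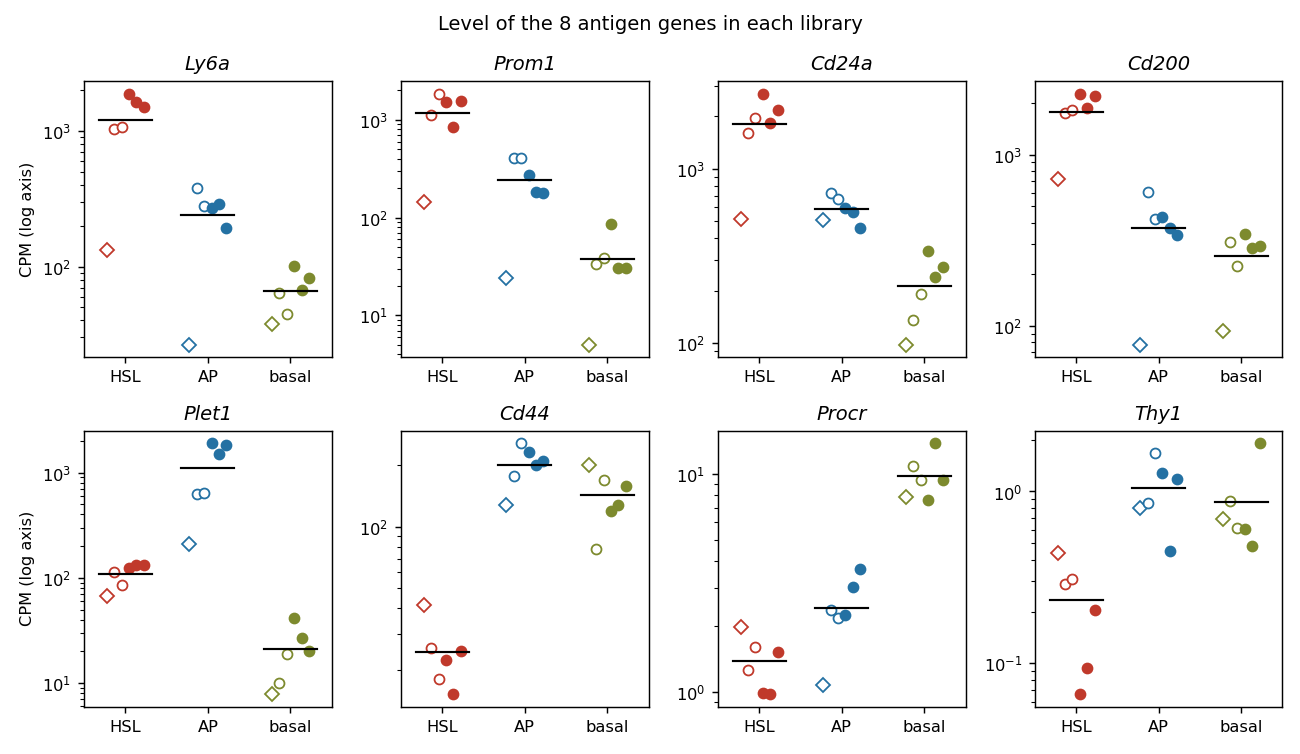
Level of each of the 8 genes in CPM (log axis) in the 6 HSL, 6 AP and 6 basal libraries. Open symbols are samples 1 to 3, with sample 1 as a diamond, filled circles are samples 4 to 6, and black lines are means; Ly6a, Prom1, Cd24a and Cd200 have their highest means in HSL, Plet1, Cd44 and Thy1 in AP, and Procr in basal libraries.

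Ly6a, Prom1, Cd24a and Cd200 were highest in hormone-sensing luminal cells. Ly6a ranged from 132 to 1890 CPM with a median of 1284 in HSL libraries, from 26.5 to 382 with a median of 276 in AP libraries, and from 37.4 to 101 with a median of 65.2 in basal libraries. Its means were 1209 ± 622, 240 ± 121 and 66.0 ± 23.5 CPM in HSL, AP and basal libraries. The log2 difference of HSL from AP libraries was 2.33 ± 0.54 (5.03-fold, adjusted p = 0.00212), in 6 of 6 samples. The difference from basal libraries was 4.19 ± 0.59 (18.3-fold, adjusted p = 6.8e-06), and AP libraries were higher than basal libraries by 1.86 ± 0.53 (adjusted p = 0.00775). That last difference was seen in 5 of 6 samples. In sample 1 the AP library, at 26.5 CPM, lay below the basal library, at 37.4 CPM.

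Prom1 was the most strongly graded of these 4. Like Cd24a, it had the same order of populations in every sample. It ranged from 143 to 1856 CPM (median 1324) in HSL libraries, from 24.2 to 407 (median 228) in AP libraries and from 5.02 to 86.0 (median 31.99) in basal libraries. The ranges of HSL and basal libraries did not overlap, while the lowest HSL library and the lowest AP library, both of sample 1, fell within the ranges of the population below. Prom1 in HSL libraries exceeded that in basal libraries by 4.97 ± 0.73 (31.4-fold, adjusted p = 1.27e-05) and that in AP libraries by 2.26 ± 0.65 (4.78-fold, adjusted p = 0.00972). AP libraries were higher than basal libraries by 2.71 ± 0.66 (6.56-fold, adjusted p = 0.00254). Each of the 3 differences was seen in 6 of 6 samples. Without sample 6 the adjusted p for HSL against AP was 0.0592, with a log2 fold change of 2.01.

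Cd24a was at high levels in all 3 populations. It ranged from 514 to 2697 CPM (median 1893) in HSL libraries, from 457 to 723 (median 580) in AP libraries and from 98.1 to 340 (median 216) in basal libraries. Basal libraries lay below every luminal library, and the HSL library of sample 1, at 514 CPM, lay among the AP libraries. The difference of HSL from AP libraries was 1.62 ± 0.32 (3.07-fold, adjusted p = 0.000659) and that from basal libraries 3.08 ± 0.34 (8.44-fold, adjusted p = 4.64e-07). AP libraries were higher than basal libraries by 1.46 ± 0.32 (2.75-fold, adjusted p = 0.00117). All 3 differences were seen in 6 of 6 samples. In sample 1 alone, HSL and AP libraries differed by only 0.02 on the log2 scale, at 514 and 507 CPM.

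Cd200 separated HSL libraries from both other populations. It ranged from 717 to 2270 CPM (median 1839) in HSL libraries, from 77.5 to 603 (median 397) in AP libraries and from 92.8 to 342 (median 288) in basal libraries, so HSL libraries overlapped neither. On the log2 scale HSL libraries exceeded AP libraries by 2.24 ± 0.39 (4.73-fold, adjusted p = 0.000202) and basal libraries by 2.78 ± 0.40 (6.89-fold, adjusted p = 1.01e-05), each in 6 of 6 samples. AP and basal libraries, at 374 ± 172 and 257 ± 89.5 CPM, were not told apart by the test (0.54 ± 0.38, adjusted p = 0.263). This pair was called with the sample number as a block, which compares the populations within each sample (0.46 ± 0.17, adjusted p = 0.0314), and without sample 1 (0.59 ± 0.15, adjusted p = 0.00396).

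Plet1 was highest in alveolar progenitors. It ranged from 67.3 to 132 CPM (median 119) in HSL libraries, from 210 to 1897 (median 1071) in AP libraries and from 7.82 to 41.6 (median 19.5) in basal libraries, and no 2 populations overlapped. AP libraries were higher than basal libraries by 5.73 ± 0.55 (53.2-fold, adjusted p = 1.25e-07), which ranked 271 by size among the 16471 genes. HSL libraries differed from AP libraries by -3.35 ± 0.49 (adjusted p = 3.56e-05) and from basal libraries by 2.38 ± 0.47 (5.21-fold, adjusted p = 0.000297). Each difference was seen in 6 of 6 samples. Within AP libraries the spread was wide: samples 1 to 3 averaged 489 ± 242 CPM and samples 4 to 6 averaged 1738 ± 206 CPM.

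Cd44 and Thy1 were lowest in hormone-sensing luminal cells. Cd44 ranged from 15.2 to 41.7 CPM (median 23.5) in HSL libraries, from 127 to 256 (median 205) in AP libraries and from 78.1 to 201 (median 143) in basal libraries. HSL libraries lay below every AP and basal library, while AP and basal libraries overlapped. The log2 difference of HSL libraries was -3.03 ± 0.26 from AP (adjusted p = 2.25e-07) and -2.53 ± 0.26 from basal libraries (adjusted p = 1.415e-07). AP against basal libraries gave 0.49 ± 0.24 (adjusted p = 0.111), with AP higher in 5 of 6 samples and lower in sample 1, at 127 against 201 CPM. Without sample 1 the 2 populations did not overlap, and AP libraries were higher by 0.73 ± 0.19 (adjusted p = 0.00486).

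Thy1 was near the limit of what was counted. It held 3 to 25 counts per HSL library, 20 to 81 per AP library and 25 to 54 per basal library, or 0.0661 to 0.441 CPM, 0.452 to 1.68 CPM and 0.483 to 1.91 CPM. HSL libraries lay below every library of the other populations, although the gap to the lowest AP library was only 1.02-fold. The log2 difference was -2.12 ± 0.48 from AP (adjusted p = 0.00174) and -1.84 ± 0.48 from basal libraries (adjusted p = 0.00284). In samples 1 to 3 alone neither was called, with -1.72 ± 0.47 from AP (adjusted p = 0.0532) and -1.08 ± 0.46 from basal libraries (adjusted p = 0.104), while samples 4 to 6 gave -3.06 ± 0.80 (adjusted p = 0.0126) and -3.05 ± 0.80 (adjusted p = 0.00879). AP and basal libraries, at medians of 1.02 and 0.655 CPM, gave 0.28 ± 0.45 (adjusted p = 0.646), with AP higher in 3 of 6 samples. Thy1 is also an antigen of T cells. The 12 T cell genes examined summed to 3.72 to 15.6 CPM in HSL, 1.58 to 24.1 in AP and 17.2 to 47.1 in basal libraries. Of the 11 tested, Trbc2 alone was called, lower in HSL and in AP than in basal libraries, beside 30.6 and 23.1% of all genes. The part of such cells in the Thy1 counts was not tested.

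Procr was highest in basal cells. It held 31 to 113 counts per HSL library, 56 to 144 per AP library and 267 to 1234 per basal library. In CPM it ranged from 0.973 to 1.99 (median 1.39) in HSL, from 1.07 to 3.68 (median 2.30) in AP and from 7.63 to 13.9 (median 9.39) in basal libraries, so that basal libraries lay above every luminal one. HSL libraries were lower than basal libraries by -2.82 ± 0.28 (adjusted p = 1.23e-07) and AP libraries by -2.02 ± 0.27 (adjusted p = 7.6e-06), each in 6 of 6 samples. HSL libraries differed from AP libraries by -0.80 ± 0.27 (adjusted p = 0.0237), in 5 of 6 samples, with sample 1 the other way. This small difference was not called without sample 2, 4, 5 or 6 (adjusted p = 0.074, 0.0743, 0.106 and 0.079), nor by limma-voom (0.0977). Without sample 1 it was -1.11 ± 0.23 (adjusted p = 0.000919).

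Procr is also carried by endothelial cells, and markers of those cells differed between the populations in the same direction. Set against basal libraries, 11 of the 12 endothelial markers were lower and 1 was higher in HSL libraries (30.6 and 27.8% of all genes). All 12 were lower in AP than in basal libraries (23.1% of all genes). Their summed level was 104 to 243 CPM in HSL, 68.6 to 170 in AP and 158 to 479 in basal libraries. Cdh5, the cadherin that defines endothelium, averaged 1.57 ± 0.93, 2.54 ± 0.911 and 9.72 ± 3.82 CPM in HSL, AP and basal libraries. The part of endothelial RNA in the Procr level was not tested. Vwf and Plvap were the most abundant genes of that list, and Vwf was higher in HSL than in basal libraries, at 103 ± 48.5 against 54.9 ± 24.0 CPM (adjusted p = 0.0231).

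**Figure D2:**
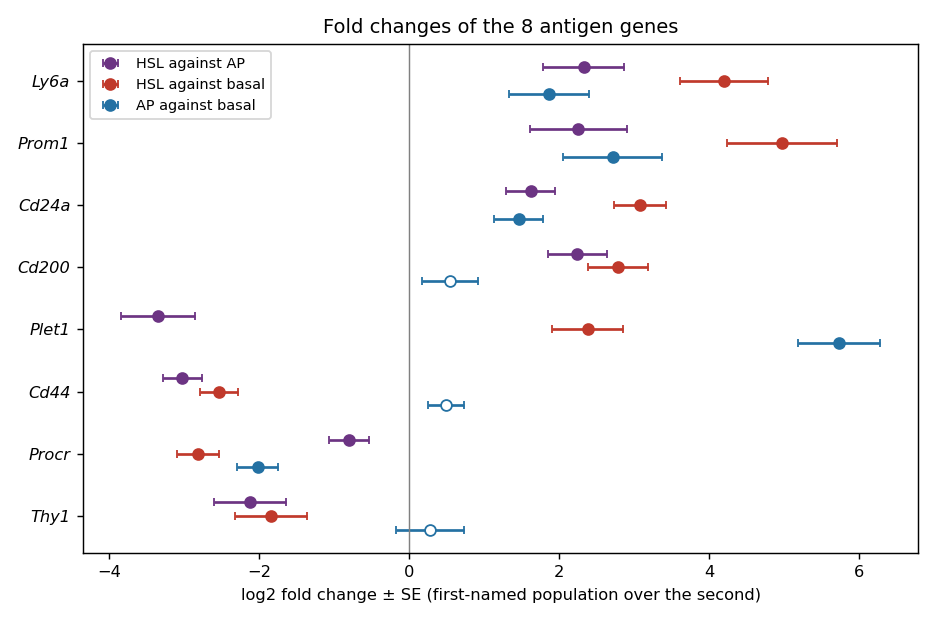
Log2 fold change ± standard error of each gene for HSL against AP, HSL against basal and AP against basal libraries, where positive values are higher in the first-named population. Filled points have an adjusted p under 0.05; the open points are Cd200, Cd44 and Thy1 for AP against basal.

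Levels of different genes were compared per kilobase of exon. In HSL libraries Ly6a had the highest mean of the 8 genes, at 1003 ± 517 CPM per kb, above Cd24a at 697 ± 283, Cd200 at 533 ± 168 and Prom1 at 163 ± 86.0. Ly6a and Cd24a differed there by less than the SD of Ly6a, and Cd24a and Cd200 by less than their SDs. Ly6a stood above 99.9% of the tested genes on that scale and Prom1 above 98.3%. In AP libraries Plet1 led at 572 ± 366 CPM per kb, above Cd24a at 227 ± 38.5 and Ly6a at 199 ± 100. Plet1 and Cd24a differed there by less than the SD of Plet1, and Cd24a and Ly6a by less than their SDs. In basal libraries the order was Cd24a (82.6 ± 34.7), Cd200 (77.4 ± 27.0), Ly6a (54.8 ± 19.5), Cd44 (21.0 ± 6.41), Plet1 (10.7 ± 6.33), Prom1 (5.21 ± 3.70), Procr (4.84 ± 1.13) and Thy1 (0.289 ± 0.176 CPM per kb). Cd24a and Cd200 there differed by less than their SDs, as did Prom1 and Procr. So 6 of the 8 genes had a higher mean per kilobase in basal libraries than Procr, the one gene that was highest there. Thy1 stood above 9.45% of the tested genes in HSL libraries and Procr above 56.1% in basal libraries.

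**Figure D3:**
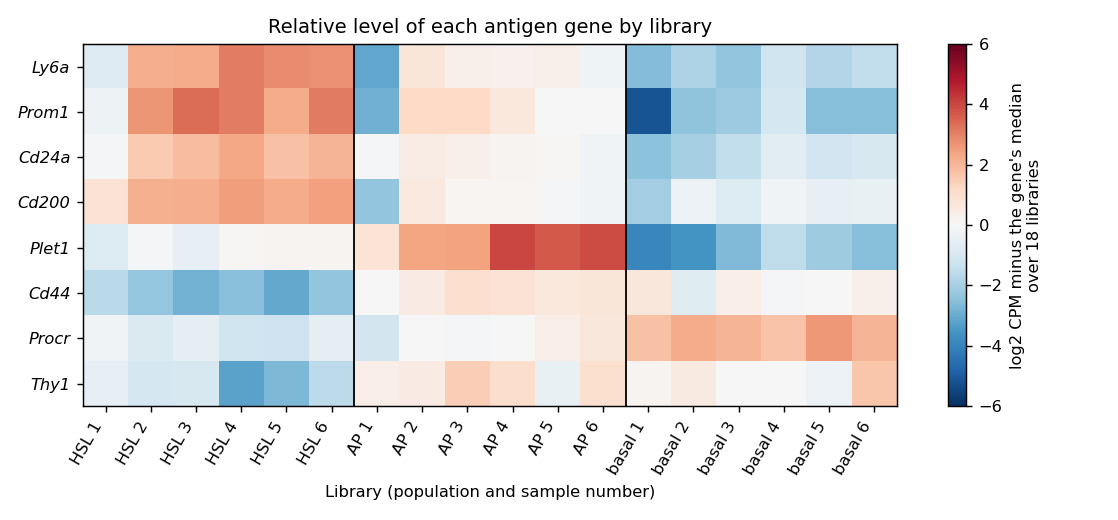
Log2 CPM of each gene in each library minus its median over the 18 libraries, with HSL, AP and basal libraries from left to right and samples 1 to 6 within each. Ly6a, Prom1, Cd24a and Cd200 are above their medians (red) in HSL libraries 2 to 6, Plet1 is highest in AP libraries 4 to 6, and the first library of each population is lower in Ly6a, Prom1 and Cd200.

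The 8 genes also differed between samples. In sample 1, Ly6a stood at 8.78% of the median of the other 5 samples in HSL libraries, 9.43% in AP and 55.9% in basal libraries. Prom1 stood at 9.39, 8.8 and 14.9%, and Cd200 at 38.5, 18.3 and 31.8%, in the same order of populations. Sample 1 was thus low in these 3 genes in every population. Plet1 was low there too, at 53.7, 14 and 38.9%, and Cd24a was at 26.2, 84.8 and 40.8%. Cd44 went the other way in HSL (187%) and basal libraries (158%) and was at 60.5% in the AP library. Procr was at 158, 45.4 and 83.4% and Thy1 at 214, 68.6 and 113% in HSL, AP and basal libraries.

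Markers of the populations moved with this in all 3 libraries of sample 1. In its HSL library the AP markers summed to 3310 CPM, the highest of the HSL libraries, whose median was 1640, and the basal markers to 255 CPM, against a median of 97.7. Its hormone-sensing markers were the lowest of the HSL libraries, at 5190 CPM against a median of 6170. The AP library of sample 1 was the lowest of its population in AP markers, at 13100 CPM against a median of 21000, and in hormone-sensing markers, at 627 against 1260 CPM. The basal library was the lowest of its population in basal markers, at 33500 CPM against a median of 48600, and in hormone-sensing markers, at 233 against 335 CPM. Leukocyte markers were highest in sample 1 in each population, at 156, 114 and 348 CPM in HSL, AP and basal libraries against medians of 27.2, 29.6 and 158, and so were T cell markers, at 15.6, 24.1 and 47.1 CPM. The part of these in the sample 1 values was not tested. Without sample 1 all 24 log2 fold changes kept their direction, and the libraries of HSL and AP did not overlap in 8 of the 8 genes, against 4 with it, a count added after the data were seen. Over all 16471 genes the share not overlapping was 37.3% without sample 1 and 20.6% with it. Without sample 1 the genes not overlapping were 8 for HSL against basal, beside 51.4% of all genes, and 6 for AP against basal, beside 38.2%. HSL against AP was then 2.31 ± 0.23 for Ly6a, 2.23 ± 0.34 for Prom1 and 1.75 ± 0.21 for Cd24a.

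**Figure D4:**
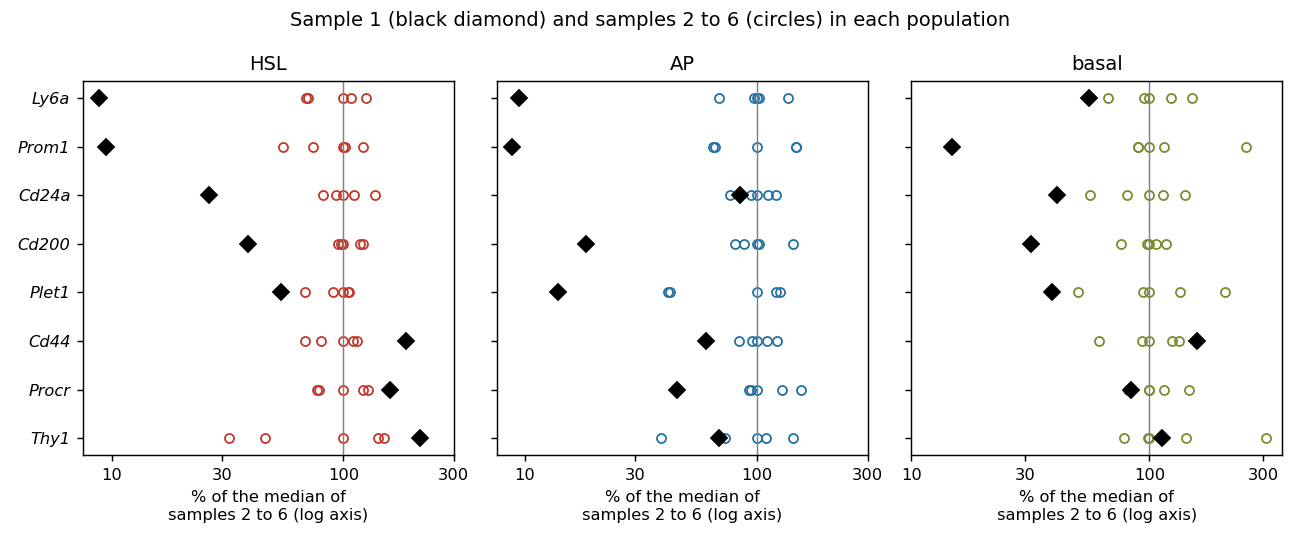
Level of each gene in each sample as a percentage of the median of samples 2 to 6 (log axis), for HSL, AP and basal libraries from left to right. The black diamond is sample 1, which lies below all circles for Prom1, Cd200 and Plet1 in each of the 3 populations and at about 9% for Ly6a in HSL and AP libraries.

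The numbers in the file names fall into 2 runs, samples 1 to 3 and samples 4 to 6, though no label records a batch. Plet1 was lower in samples 1 to 3 than in samples 4 to 6 in each population, at 88.5 ± 22.9 and 130 ± 3.88 CPM in HSL, 489 ± 242 and 1738 ± 206 in AP, and 12.2 ± 5.84 and 29.6 ± 11.0 in basal libraries. The differences of Plet1 between populations held in both runs. HSL against AP was -2.53 ± 0.49 in samples 1 to 3 (adjusted p = 0.0186) and -3.78 ± 0.25 in samples 4 to 6 (adjusted p = 6.89e-06). In samples 1 to 3 alone, HSL against AP was called in 2 of the 8 genes, Cd44 and Plet1, where 8.86% of all genes were called, and in samples 4 to 6 alone in all 8, where 43.8% were. HSL against basal was called in 7 genes in samples 1 to 3 (33.7% of all genes) and in 8 in samples 4 to 6 (60.7%), and AP against basal in 3 (22.1%) and 6 (47.5%). For HSL against AP, Ly6a gave 1.62 ± 0.93 (adjusted p = 0.314) in samples 1 to 3 and 2.71 ± 0.20 (adjusted p = 1.17e-05) in samples 4 to 6.

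Relatives and partners of the 8 genes were examined as lists, whose counts include the gene itself. Of the Ly6 and uPAR family, small cysteine-rich surface proteins, 14 of 22 genes were tested. HSL libraries were higher in 5 and lower in 4 than basal libraries, beside 27.8 and 30.6% of all genes. They were higher in 5 and lower in 2 than AP libraries, beside 19.8 and 20.1%. The medians were 0.62 and -0.01, against -0.06 and -0.01 over all genes. AP libraries were higher in 6 and lower in 2 than basal libraries, beside 21.5 and 23.1% (median 0.88, against 0.00 over all genes). Ly6e was highest in the same population as Ly6a, at 5935 CPM in HSL, 4294 in AP and 2298 in basal libraries, with 1.37 ± 0.13 for HSL against basal (adjusted p = 5.13e-08). Ly6g6c, which shares 17.1% of its span with other genes, gave 4.59 ± 0.58 for HSL against basal. Cd59a, a complement inhibitor, went the other way (-2.57 ± 0.35). Ly6c1, a paralog that shares transcript sequence with Ly6a, averaged 26.1 CPM in HSL, 12.3 in AP and 21.0 in basal libraries, and Plaur, the urokinase receptor, was called in none of the comparisons.

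In the protein C pathway 10 of 13 genes were tested. Of these, HSL libraries were lower in 6 and higher in 2 than basal libraries (median -2.75), beside 30.6 and 27.8% of all genes. AP libraries were lower in 6 and higher in 3 than basal libraries (median -1.65), beside 23.1 and 21.5%. HSL libraries were lower in 7 and higher in 2 than AP libraries (median -1.56), beside 20.1 and 19.8%. Pros1, which encodes protein S, the cofactor of activated protein C, was at 19.9, 65.7 and 610 CPM in HSL, AP and basal libraries, and lower in HSL than in basal by -4.94 ± 0.24 (adjusted p = 2.93e-11). F2r, the thrombin receptor PAR1, was lower by -4.50 ± 0.44. Proc, the ligand protein C itself, ran opposite to its receptor, at 134, 27.7 and 2.96 CPM, above basal libraries in HSL by 5.49 ± 0.50 (adjusted p = 3.46e-08).

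Of the genes for hyaluronan and other partners of CD44, 17 of 19 were tested. HSL libraries were higher in 4 and lower in 8 than basal libraries (median -1.14), beside 27.8 and 30.6% of all genes. They were higher in 5 and lower in 4 than AP libraries (median -0.11), beside 19.8 and 20.1%. AP libraries were higher in 4 and lower in 7 than basal libraries (median -0.04), beside 21.5 and 23.1%. Has1, a hyaluronan synthase, was lowest in the population in which Cd44 was lowest, at 1.93, 29.1 and 41.1 CPM in HSL, AP and basal libraries. Has2, another synthase that shares 15.9% of its span, was high in basal libraries alone, at 2.04, 1.84 and 115 CPM, lower in HSL than in basal libraries by -5.81 ± 0.58 (adjusted p = 1.2e-07). Msn, the gene of moesin, which links the tail of CD44 to actin, was lower in HSL than in basal libraries by -3.19 ± 0.14, and its relative Rdx was called in none of the comparisons. Esrp2, a splicing factor that acts on Cd44 exons in epithelia, was higher in HSL than in basal libraries by 3.77 ± 0.25, though it shares 27% of its span. Gene counts do not show which Cd44 isoforms were present.

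Of the prominin and microvillus list 11 of 13 genes were tested. HSL libraries were higher in 5 and lower in 4 than basal libraries, beside 27.8 and 30.6% of all genes. They were higher in 4 and lower in 3 than AP libraries, beside 19.8 and 20.1%. AP libraries were higher in 5 and lower in 2 than basal libraries, beside 21.5 and 23.1%. Prom2, the paralog of Prom1, was higher in HSL libraries than in both others, at 1003, 220 and 216 CPM in HSL, AP and basal libraries. It was not called between AP and basal libraries (0.03 ± 0.19, adjusted p = 0.925), and the difference of that value from the one of Prom1 was not tested. Ezr, the gene of ezrin, was at 2436, 1199 and 385 CPM in that order. Slc9a3r1, a scaffold that binds ezrin, was at 422, 477 and 114 CPM. Cdhr1, a photoreceptor cadherin that interacts with prominin-1 in mice, was lowest in the population in which Prom1 was highest, at 1.11 CPM in HSL, 42.7 in AP and 14.5 in basal libraries.

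Of 27 genes that build or remodel the GPI anchor 25 were tested. HSL libraries were higher in 15 and lower in 1 than basal libraries, with a median of 0.52. Over all genes 27.8% were higher and 30.6% lower, with a median of -0.06. Against AP libraries 9 were higher and 3 lower in HSL (median 0.27), beside 19.8 and 20.1% of all genes. AP libraries were higher in 9 and lower in 1 than basal libraries (median 0.26), beside 21.5 and 23.1%. Pgap3, which remodels the lipid of the anchor, was higher in HSL than in basal libraries by 1.80 ± 0.12 (adjusted p = 4.99e-10) and Pgap2 by 1.40 ± 0.12. Pigu and Pigl, which act in the making of the anchor, were higher by 1.02 ± 0.11 and 1.22 ± 0.15, and Pigl shares 33.9% of its span. Dpm2 and Dpm3, subunits of the enzyme that supplies mannose, were called in none of the comparisons. Among counter-receptors of CD200, CD24 and CD90, 7 of 10 were tested, with 1 lower in HSL than in basal, 2 lower in AP than in basal and 1 higher in HSL than in AP libraries. The integrin gene Itgav was lower in AP than in basal libraries by -1.23 ± 0.24, with 26.8% of its span shared, and Selp (P-selectin) was lower in HSL than in basal libraries by -2.64 ± 0.67. Cd200r1 averaged 0.112, 0.197 and 0.582 CPM in HSL, AP and basal libraries.

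Other antigens used in mammary sorting gave further patterns, with 15 of 16 genes tested. In HSL libraries 5 were higher and 8 lower than in basal libraries, beside 27.8 and 30.6% of all genes. Against AP libraries 2 were higher and 7 lower in HSL, beside 19.8 and 20.1%. AP libraries were higher in 5 and lower in 7 than basal libraries, beside 21.5 and 23.1%. Muc1 had the order of Plet1, at 29.97, 331 and 8.57 CPM in HSL, AP and basal libraries. Alcam was highest in HSL, at 241, 89.6 and 26.0 CPM. Lgr5, a receptor for R-spondins, and Icam1 were basal, at 1.02, 3.22 and 368 CPM and at 45.0, 75.3 and 1305 CPM. HSL against basal was -8.43 ± 0.49 for Lgr5 and -4.86 ± 0.36 for Icam1, beside -2.82 ± 0.28 for Procr. The genes of the gate describe the sort: Itgb3 (CD61) was at 0.734, 44.7 and 97.6 CPM, Itga6 (CD49f) at 274, 215 and 670 CPM and Epcam at 3086, 3538 and 540 CPM. Pecam1 (CD31) was at 9.49, 12.7 and 44.9 CPM and Ptprc (CD45) at 4.25, 3.16 and 7.36 CPM.

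**Figure D5:**
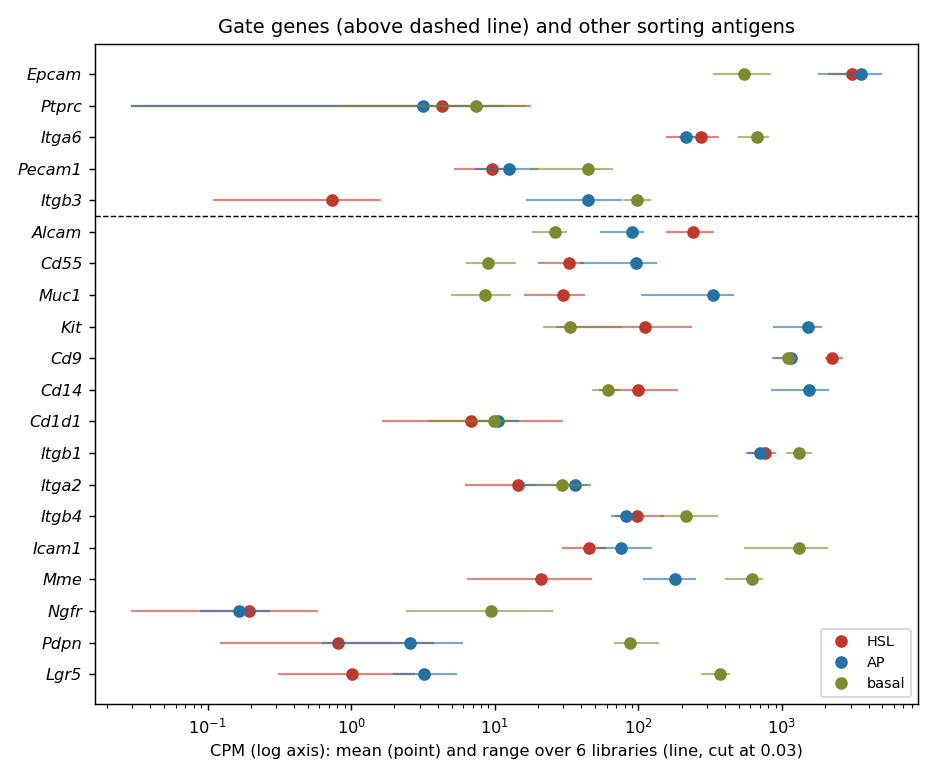
Mean level in CPM (points, log axis) and range over 6 libraries (lines) of gate genes, above the dashed line, and of other sorting antigens, below it, in HSL, AP and basal libraries. Alcam has its highest mean in HSL, Muc1, Kit and Cd14 in AP, and Lgr5, Icam1 and Mme in basal libraries.

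The genes with the most similar profiles were taken, for each antigen, as the 3 with the highest Pearson correlation of log2 CPM over the 18 libraries among 7694 protein-coding genes with a mean of at least 10 CPM and under 10% of their span shared. These limits leave Prom1, Plet1, Procr and Thy1 out as candidates. These values describe libraries that share samples and populations. Prom1 was closest to Slc5a5, the sodium and iodide transporter (r = 0.9955, and 0.9957 over the 15 libraries without sample 1), then to Cyp3a57 and Fer1l4 (r = 0.990 each). Ly6a was closest to Tmed3, Tspan13 and Adipor1 (r = 0.978, 0.975 and 0.974), Cd200 to Slc35g2, Chmp5 and Slc7a2 (0.985, 0.973 and 0.972), and Cd24a to Polb, Mtmr1 and Mycl (0.971, 0.970 and 0.968). Plet1 was closest to Aldoc, Anxa9 and Muc1 (0.982, 0.972 and 0.971). Cd44 was closest to Car12, Ehd3 and Stk39 (0.976, 0.971 and 0.964), and Procr to Fbln5, Fam13c and Jam2 (0.975, 0.975 and 0.970). Thy1, with few counts, had looser neighbours in Elmo1, Slc43a2 and Mtss1l (0.914, 0.898 and 0.888).

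Markers of other cell types were examined as well. Against basal libraries, 27.8% of all genes were higher and 30.6% lower in HSL, and 21.5% higher and 23.1% lower in AP libraries. Fibroblast markers summed to 141 to 339 CPM in HSL, 711 to 1850 in AP and 1380 to 2420 in basal libraries, with Mmp2 and Col3a1 the most abundant. Of these 12, 11 were lower and 1 higher in HSL, and 4 were lower and 6 higher in AP, each against basal libraries. Leukocyte markers summed to 4.03 to 156 CPM in HSL, 4.63 to 114 in AP and 64.3 to 348 in basal libraries, led by Lyz2 and Csf1r, and Itgam was listed at 0 in all libraries. Itgam shares 99.9% of its span with other genes, and Pigc, an enzyme of GPI synthesis whose span is 100% shared, was listed at 0 as well, so this 0 says nothing of leukocytes. Of the leukocyte markers 1 of the 10 tested was lower in HSL and 2 in AP than in basal libraries. Pericyte markers, led by Notch3 and Mcam, summed to 84.5 to 162, 127 to 225 and 153 to 265 CPM in HSL, AP and basal libraries, with 9 of 10 lower in HSL and 8 in AP than in basal libraries. Notch3, which shares 45.7% of its span and averaged 104, 115 and 11.0 CPM, was the 1 marker higher in HSL (3.23 ± 0.28) and in AP (3.38 ± 0.28) than in basal libraries. Nerve sheath genes, led by Sox10 and Pmp22, summed to 117 to 129, 316 to 710 and 358 to 732 CPM, with 6 of 8 lower and 1 higher in HSL, and 3 lower and 2 higher in AP, than in basal libraries. Sox10 was lower in HSL (-3.05 ± 0.36) and higher in AP (1.13 ± 0.33), and Mbp was higher in both (1.32 ± 0.15 and 1.68 ± 0.15). Erythroid genes, led by Hbb-bs and Hba-a1, summed to 9.36 to 32.4, 13.4 to 69.8 and 65.2 to 264 CPM, and all 4 tested were lower in HSL and in AP than in basal libraries. Adipocyte genes, led by Lep and Cfd, summed to at most 2.79, 5.13 and 11.6 CPM, and neither of the 2 tested was called. Cd44, Thy1, Cd200 and Ly6a are carried by several of these cell types, whose part in the levels above was not tested.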

How the data were processed

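Libraries of sorted mammary cells were made with Smart-Seq v4 (2 ng RNA) and Nextera XT (150 pg cDNA), per the labels' protocols. The authors deposited whole-number gene counts, and RPKM values beside them, per the file headers. The counts were used and the deposited RPKM values were not, since the gene widths beside them are the genomic spans for 7 of the 8 antigens. Per the submitters' processing notes the genome was GRCm38, while no aligner or counter is named in the sources used here. Of 52636 identifiers 52489 matched GENCODE M21. The 147 others, at most 0.00677% of a library's counts, were not tested.

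Genes were kept by filterByExpr with a minimum count of 10, scaled with TMM factors and fitted with 1 mean per population over all 18 libraries in edgeR 4.0.16 (R 4.3.3, robust quasi-likelihood F test, Benjamini-Hochberg adjustment, call at an adjusted p under 0.05). Alternatives used DESeq2 1.42.0, limma-voom (limma 3.58.1), other scalings, filters and samples. The fit was checked on simulated counts. Levels per kilobase divide CPM by the union of GENCODE exons. Python 3.11.15 and pandas 2.3.3 joined the tables.

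Each sample number occurs once per population. Residuals from the population means correlated, across genes, with r from 0.127 to 0.63 over the 18 same-numbered pairs. Other pairs gave r from -0.409 to 0.222, so the ranges overlap. The numbers were taken as pairing the libraries. The main fit does not use this pairing, and the fit with the sample number as a block does. Groups were read from the titles. The p-values measure the spread between these samples. The antigens, lists and tests were chosen with earlier results of these data known. Named genes were the 8 antigens, the gate genes, the 3 genes most like each antigen (mean of at least 10 CPM, under 10% of the span shared), up to 4 called genes with the smallest adjusted p and up to 2 with a mean of at least 10 CPM not called in any comparison per list, and the 2 most abundant genes of each other cell type. Cdh5, Ly6c1, Cd200r1, Kit, Cd14, Mme, Sec14l2, Tnfsf11, Mbp, Itgam and Pigc fall outside this rule and were named after their values were seen.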

Additional observations from a re-analysis of the deposited data

Results flagged for a closer look

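In 24 groups of 6 libraries, 8 genes in 3 populations, 2 held a library whose gap to its nearest neighbour took an unusually large share of the range, by a criterion that flags about 1 group in 20 by chance. Cd200 in the HSL library of sample 1 was at 717 CPM, with the next HSL library at 1759 CPM. Without sample 1 the difference between HSL and AP libraries was 2.17 ± 0.16 on the log2 scale. Thy1 in the basal library of sample 6 was at 1.91 CPM, with the next basal library at 0.879 CPM. Without sample 6 HSL against basal libraries gave -1.46 ± 0.50 (adjusted p = 0.0231 by edgeR), and AP against basal libraries 0.65 ± 0.48 (adjusted p = 0.315). These 2 values are given without an explanation.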

How the results depend on the processing

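Over the 16 alternatives none of the 24 log2 fold changes of the antigens changed sign. DESeq2, DESeq2 size factors in edgeR, total counts, no filter and fits of only the 2 populations compared left all 24 on the same side of the threshold, and Thy1 did not pass the filter with a minimum count of 50. With total counts the all-gene median was 0.136 (AP against basal) and -0.185 (HSL against AP), against 0.00 and -0.01 with TMM, and the split of all calls between HSL and AP moved to 2234 above and 4043 below, against 3256 and 3315. With the sample number as a replicate block, calls rose to 6 antigens for AP against basal, with Cd200 added. Over all genes the block raised the calls for AP against basal from 7356 to 9072. It changed no other call of the antigens. Samples 1 to 3 alone gave the lowest counts, with 3 antigens (AP against basal), 7 (HSL against basal, without Thy1) and 2 (HSL against AP). Over all genes that fit called 3718 (AP against basal), 5674 (HSL against basal) and 1491 (HSL against AP), where all samples gave 7356, 9621 and 6571. Samples 4 to 6 alone, with as many libraries as samples 1 to 3, called 7693, 9835 and 7090 genes. The fit of samples 1 to 3 has fewer libraries than the full fit and includes sample 1, and the part of either in its counts was not tested. Leaving out 1 sample number at a time gave 5 to 7 antigens (AP against basal), 8 each time (HSL against basal) and 6 to 8 (HSL against AP). Over all genes the same fits called 6205 to 8352, 8546 to 10651 and 5207 to 7898 genes, in that order of comparisons. Thy1 and Procr rest on few counts, which limits the precision of their folds.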
